A study of Homo sapiens with 18 samples.

Results

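The EYA family has 4 genes in humans, EYA1, EYA2, EYA3 and EYA4, and their 4 rows were taken by symbol from a count table of 25369 genes. The table came from polyA RNA sequencing of D425 and D458, cell lines that the labels place in Group 3 medulloblastoma, a tumour of the cerebellum. In each line, cells were transduced with a vector that carries zsGreen, a green fluorescent protein, and either a non-targeting short hairpin RNA (the control) or a hairpin against EYA2. D425 carried hairpin 6 or hairpin 8, and D458 carried hairpin 7 or hairpin 8, and each of the 6 groups has 3 replicates that the series calls independent biological ones, 18 libraries in all. The labels give replicates 2 and 3 of every group the same date, and replicate 1 an earlier one. Whether the 3 are equally independent was not tested. The cells of every group, controls included, were kept in puromycin at 1 µg/mL for 48 h, sorted for the brightest 10% by zsGreen, and left for 24 h before RNA was taken. The RNA thus comes from the highest expressers of each vector, measured shortly after sorting, and whether each population derived from few or many transduced cells is not given in the sources used here. EYA1, EYA2 and EYA3 passed the filter on low counts, with 14850 genes tested in all, and EYA4 did not.

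EYA proteins are the vertebrate relatives of the Drosophila protein eyes absent. They bind no DNA themselves: homeodomain proteins of the sine oculis type bring them to genes, where they act as coactivators, while DACH proteins act in the same network largely as corepressors. The conserved C-terminal EYA domain is also a tyrosine phosphatase of the haloacid dehalogenase class, whose known substrates include the histone variant H2AX, the nuclear receptor ESR2 and the actin regulator WDR1. The network, which also takes in PAX proteins, is best known from the eye, ear, kidney and muscle of the embryo.

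The hairpin sequences are not in the sources used here, so the stretches in which EYA2 and a paralog read alike were listed from GENCODE transcripts (GRCh38) instead, to show how closely a matching hairpin could fit a second family member. The longest run of identical bases that EYA2 shares with EYA1, EYA3 or EYA4 is 20 bases in each case, and EYA2 shares no 21-base word with any of them. EYA2 has 2 such runs with EYA3, 1 with EYA4 and 1 with EYA1. The EYA3 and EYA4 runs, all in coding sequence, are these.
EYA2 and EYA3, first run: agcacaacatgcctttctgg
EYA2 and EYA3, second run: tttcctattgagaacatcta
EYA2 and EYA4: acctacaagaacaacgttgg
The second EYA2 and EYA3 run lies in the stretch below, which is given for EYA2 (bases 1354 to 1463 of its coding sequence), EYA3 (bases 1459 to 1568) and EYA4 (bases 1675 to 1784), with capitals for the 69 of 110 bases that are identical in all 3.
EYA2: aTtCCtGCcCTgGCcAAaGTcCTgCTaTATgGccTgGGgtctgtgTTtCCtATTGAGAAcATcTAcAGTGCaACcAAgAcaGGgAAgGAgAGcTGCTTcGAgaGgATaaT
EYA3: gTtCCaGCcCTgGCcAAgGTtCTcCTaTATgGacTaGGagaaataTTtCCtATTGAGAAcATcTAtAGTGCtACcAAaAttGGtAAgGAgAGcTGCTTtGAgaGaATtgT
EYA4: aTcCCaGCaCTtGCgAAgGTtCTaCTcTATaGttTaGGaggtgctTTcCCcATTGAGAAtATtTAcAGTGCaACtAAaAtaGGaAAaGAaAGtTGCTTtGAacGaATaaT
In this stretch EYA3 matched EYA2 at 79.1% of bases and EYA4 matched it at 70% of bases. The longest coding sequences were also aligned, and identity was counted over the aligned bases of the highest-scoring local alignment, gaps left out. There EYA2 matched EYA3 at 75.8% of 756 bases, EYA1 at 73% of 1428 bases and EYA4 at 72.3% of 804 bases.

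Library totals ran from 21260369 to 31552051 counts. Levels below are CPM, counts scaled to a common library size with TMM factors, and a gene is called when its adjusted p, from an edgeR quasi-likelihood test with Benjamini-Hochberg correction over all genes tested, is under 0.05. Where hairpin libraries are said to lie all above or all below the controls, the share of all tested genes that did so was not counted. Of 7 markers of Group 3 medulloblastoma, 6 were expressed in all groups, MYC and OTX2 most, and NPR3 was near 0. The 3 granule lineage markers ATOH1, BARHL1 and SFRP1 were near 0 in every group. Of 9 markers of other cell types, COL1A1, a fibroblast collagen, was called higher with every hairpin, from 3.50 ± 1.76 CPM in D425 controls to 28.9 ± 12.9 and 25.02 ± 6.49 CPM, and from 0.943 ± 0.398 CPM in D458 controls to 5.52 ± 1.72 and 3.36 ± 0.772 CPM (mean and SD, n = 3). The summed level of all 9 ran from 7.62 to 10.8 CPM in D425 controls, from 26.6 to 59.7 CPM with hairpin 6 and from 26.3 to 58.2 CPM with hairpin 8. In D458 it ran from 1.502 to 2.58 CPM in controls, from 5.06 to 8.34 CPM with hairpin 7 and from 3.78 to 5.11 CPM with hairpin 8. Without COL1A1 the summed level overlapped the controls in every hairpin group: it ran from 5.41 to 6.56 CPM in D425 controls, from 6.37 to 18.2 CPM with hairpin 6 and from 5.29 to 25.7 CPM with hairpin 8. In D458 it ran from 0.542 to 1.24 CPM in controls, from 0.911 to 1.85 CPM with hairpin 7 and from 0.865 to 1.02 CPM with hairpin 8. PTPRC, a blood cell marker, was also called higher with hairpin 7 in D458, where it went from 1 read in the controls to 13. In D425 it averaged 0.834 CPM in controls and 0.530 and 0.429 CPM with the hairpins, not called. CD68, a macrophage and microglia marker, averaged 0.701 CPM in D458 controls and 0.530 and 0.552 CPM with the hairpins, also not called. PECAM1, AQP4, MBP and MOG averaged at or below 0.240 CPM in every group. COL3A1, another fibroblast collagen, was at 2.26 ± 0.712 CPM in D425 controls and at 7.76 ± 5.37 and 10.6 ± 10.8 CPM with the hairpins, not called. In D458 it averaged at or below 0.096 CPM in every group. GFAP averaged at or below 0.855 CPM in every group. COL1A1 moved with all the hairpins, and the part of the collagens in the EYA values was not tested.

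The lines differed first in which family members they used. In control cells, EYA1 was nearly silent in D425, with 3, 0 and 0 reads, and read 29.4, 27.03 and 26.9 CPM in D458. The 1860 reads of the D458 controls against 3 in D425 correspond to a rate 793-fold higher (95% interval of the counts 271 to 3850, counting error only). EYA2 read 43.6, 24.6 and 15.5 CPM in the D425 controls and 73.7, 67.5 and 69.8 CPM in the D458 controls. Every D458 control was above every D425 control, and the log2 difference of 1.33 ± 0.27 (standard error) passed (adjusted p = 3.78e-04). EYA3 was alike in level: 58.7, 46.2 and 58.1 CPM in D425 against 59.8, 46.7 and 49.4 CPM in D458, a log2 difference of -0.06 ± 0.11 (95% interval -0.30 to 0.18, adjusted p = 0.644). EYA1 and EYA2 were therefore 2 of 3 tested members called between the control groups, where 62.8% of all tested genes were called. EYA1, with at most 9 reads in a D425 library, passed the low-count filter only through D458. Its call between the lines was thus largely fixed by that filter and adds nothing to the count.

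Members can be compared with each other only per length. The length used here is the union of the exons of all coding transcripts, and which transcripts these cells use was not tested. Per kb of exon (5378 bases for EYA1, 2703 for EYA2, 6202 for EYA3 and 6058 for EYA4), the D425 controls held EYA2 at 10.3 ± 5.31 and EYA3 at 8.76 ± 1.14 CPM per kb, within each other's spread. In the D458 controls the order was EYA2 at 26.02 ± 1.17, EYA3 at 8.38 ± 1.12 and EYA1 at 5.17 ± 0.27 CPM per kb, with no overlap between members. By this length EYA2 was the most abundant member in D458 controls, 65.8 ± 1.29% of family RNA per kb, and shared that place with EYA3 in D425, at 52.0 ± 12.7%. The D425 order depends on the length used. In CPM the D425 controls held EYA3 at 54.3 ± 7.08 and EYA2 at 27.9 ± 14.3. The D458 controls held EYA2 at 70.3 ± 3.16, EYA3 at 52.0 ± 6.93 and EYA1 at 27.8 ± 1.45 CPM, the same order as per kb. Coding sequences are closer in length, at 1615 bases for EYA2, 1824 for EYA3 and 1863 for EYA1.

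**Figure D1:**
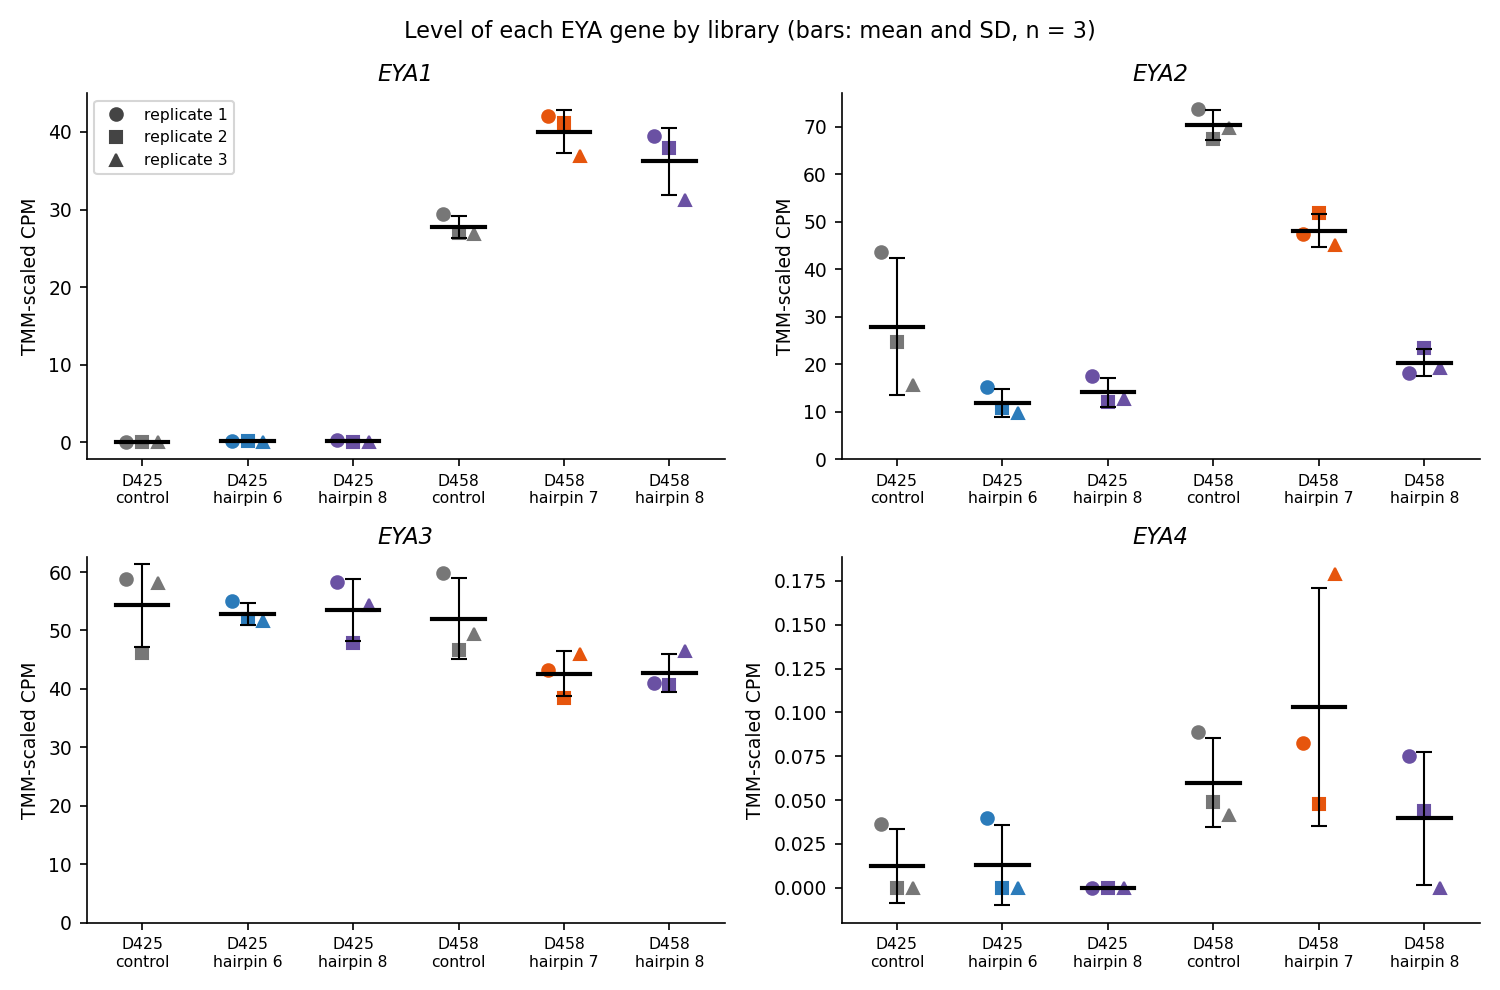
TMM-scaled CPM of EYA1, EYA2, EYA3 and EYA4 (1 panel each, with its own axis) in the 6 groups; points are libraries with a shape for each replicate number, and lines and bars are the mean and SD of 3. EYA2 falls below the controls with hairpin 8 in D458 (18.2 to 23.5 against 67.5 to 73.7 CPM), EYA1 is seen almost only in D458, and EYA4 stays under 0.18 CPM.

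EYA2 is the target of the hairpins. In D425 it read 15.1, 10.7 and 9.72 CPM with hairpin 6 (replicates 1, 2 and 3), and all 3 libraries lay below all 3 controls. With hairpin 8 it read 17.5, 12.0 and 12.7 CPM, and the first of these lay above control 3 at 15.5 CPM, so the groups overlapped. The log2 change was -1.24 ± 0.27 for hairpin 6 (adjusted p = 0.0069) and -0.98 ± 0.27 for hairpin 8 (adjusted p = 0.017). EYA2 was the only tested member called with hairpin 6, in a comparison that called 14.1% of all tested genes, and the only one with hairpin 8, which called 21.7%. In such bulk libraries, fewer cells holding a transcript and less transcript per cell cannot be told apart.

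The size of the D425 fall depended in part on control 1, which had the highest EYA2 level of that group. With replicate 1 left out of every group, both calls held, at -0.97 for hairpin 6 (adjusted p = 0.0020) and -0.69 for hairpin 8 (adjusted p = 0.012). Without control 1 alone the change was -0.76 for hairpin 6 (adjusted p = 0.0184) and -0.51 for hairpin 8, which was then not called (adjusted p = 0.0865). The hairpin 8 call was also lost without hairpin 8 replicate 2 (-0.89, adjusted p = 0.0571), without its replicate 3 (-0.92, adjusted p = 0.0601), without replicate 2 of every group (-0.97, adjusted p = 0.168), and in a fit restricted to D425 (-0.98, adjusted p = 0.0759). The hairpin 6 call held in all 6 fits that left out 1 library, and was lost without replicate 2 (-1.26, adjusted p = 0.1545) and without replicate 3 (-1.40, adjusted p = 0.0542) of every group.

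In D458 the hairpins differed in depth. EYA2 read 47.5, 51.9 and 45.1 CPM with hairpin 7 and 18.2, 23.5 and 19.3 CPM with hairpin 8, against 73.7, 67.5 and 69.8 CPM in the controls. The 3 groups did not overlap. The log2 change was -0.55 ± 0.26 for hairpin 7, which did not pass (adjusted p = 0.137, 95% interval -1.10 to 0.01), and -1.79 ± 0.27 for hairpin 8 (adjusted p = 5.06e-04). Libraries that shared a replicate number also shared a run name in the labels, and with that number as a block in the model hairpin 7 passed (-0.55, adjusted p = 0.0069). A fit restricted to D458 also called it (adjusted p = 0.0082). Hairpin 7 called 22.6% of all tested genes and hairpin 8 called 23.2%.

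Between the D458 hairpins, EYA2 with hairpin 8 differed from that with hairpin 7 by -1.24 ± 0.27 on the log2 scale (unadjusted p = 2.79e-04, rank 4 by p among 14850 genes). After adjustment no gene was called between these hairpins (0% of all tested genes), although 274 genes had an unadjusted p under 0.05. With the replicate block EYA2 ranked 1 and was the only gene called (adjusted p = 0.011), and DESeq2 called 4 genes, EYA2 among them (adjusted p = 0.0144). In D425, hairpin 8 and hairpin 6 differed in EYA2 by 0.25 ± 0.28 (95% interval -0.33 to 0.84), again with 0% of genes called by edgeR, 519 with an unadjusted p under 0.05, and 6 called by DESeq2.

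Hairpin 8 was used in both lines. Its EYA2 change in D458 minus that in D425 was -0.81 ± 0.38 (95% interval -1.61 to -0.01), which was not called (adjusted p = 0.177) in a comparison that called 11.8% of genes. With the replicate block the difference was -0.89 and passed (adjusted p = 0.0067), and without D425 control 1 it was -1.28 and also passed (adjusted p = 0.0059). In the other 11 of 12 fits that left out 1 library it was not called, and it shrank to -0.51 without D425 control 3 (adjusted p = 0.326) and to -0.62 without D425 hairpin 8 replicate 1 (adjusted p = 0.369). Of 3 fits without a replicate number, only that without replicate 1 called it (-0.99, adjusted p = 0.0175), and without replicate 3 it was -0.53 (adjusted p = 0.501). Averaged over the hairpins of a line, EYA2 fell by 1.11 ± 0.23 in D425 (adjusted p = 0.0023, 23.6% of genes called) and by 1.17 ± 0.22 in D458 (adjusted p = 0.0014, 31.8% of genes called). The D425 call was lost without replicate 2 (-1.11, adjusted p = 0.0737). The average falls differed by -0.06 ± 0.32 (95% interval -0.75 to 0.63, adjusted p = 0.927, 18.4% of genes called).

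**Figure D2:**
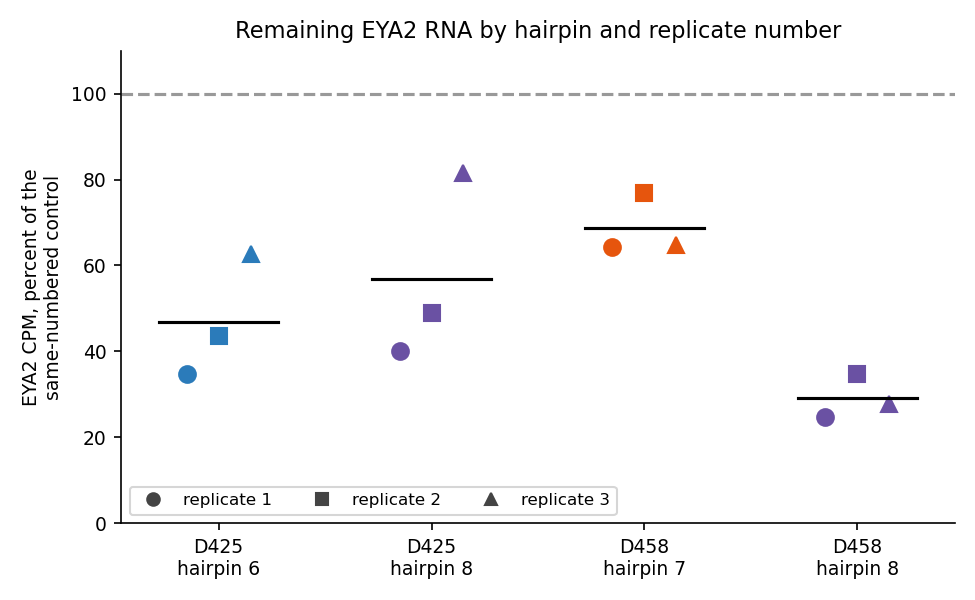
EYA2 CPM of each hairpin library as a percent of the control with the same replicate number; points are libraries, short lines are means, and the dashed line marks the control. All 12 libraries lie below 100%, from 24.7% (D458 hairpin 8, replicate 1) to 81.5% (D425 hairpin 8, replicate 3).

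Set against the control of the same number, the EYA2 left in D425 was 34.6%, 43.5% and 62.6% with hairpin 6 and 40.2%, 48.9% and 81.5% with hairpin 8. In D458 it was 64.4%, 76.8% and 64.7% with hairpin 7 and 24.7%, 34.8% and 27.7% with hairpin 8. Replicate 3 gave the shallowest fall in D425 with both hairpins, beside the lowest control of the group at 15.5 CPM. Against the mean of the line's controls the remaining EYA2 was 42.4 ± 10.3% and 50.4 ± 10.8% in D425, and 68.5 ± 4.88% and 28.9 ± 3.94% in D458. The knocked-down D458 cells of hairpin 8 still held 20.3 ± 2.77 CPM, within the range of the D425 controls (15.5 to 43.6 CPM). In order of the mean level, the groups ran D458 control, D458 hairpin 7, D425 control, D458 hairpin 8, D425 hairpin 8 and D425 hairpin 6, of which D425 control and D458 hairpin 8 overlapped in range, as did the D425 hairpins. The other neighbours in that order did not overlap.

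EYA1, a member also linked to Hedgehog signalling, ran the other way in D458. It read 42.1, 41.1 and 36.9 CPM with hairpin 7 and 39.4, 37.9 and 31.3 CPM with hairpin 8, all above the controls at 26.9 to 29.4 CPM. How many of all tested genes were separated from the controls in this way was not counted. The log2 changes were 0.53 ± 0.19 (adjusted p = 0.058) and 0.38 ± 0.19 (adjusted p = 0.159), and neither was called. Their average, 0.45 ± 0.17, also missed the threshold (adjusted p = 0.0503). With the replicate block both passed, at 0.53 (adjusted p = 0.0014) and 0.38 (adjusted p = 0.0107), as did the average (adjusted p = 0.0011). DESeq2 called both (adjusted p = 4.26e-04 and 0.013), and so did a fit restricted to D458 (adjusted p = 0.0101 and 0.0299). The 2 hairpin comparisons share the same 3 controls. Hairpin 8 minus hairpin 7 was -0.15 ± 0.19 for EYA1 (95% interval -0.55 to 0.26) where it was -1.24 for EYA2.

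In D425, EYA1 stayed at the edge of detection. The 9 libraries held 28 EYA1 reads in all: 3, 0 and 0 in controls, 5, 4 and 2 with hairpin 6, and 9, 2 and 3 with hairpin 8. The summed counts of 11 and 14 against 3 give rate ratios of 3.88 (95% interval 1.02 to 21.7) and 4.61 (1.29 to 25), which cover counting error only. The groups overlapped, and the highest D425 library, at 0.299 CPM, was far below the lowest D458 library at 26.9 CPM.

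EYA3, a broadly expressed member, was not called higher with any hairpin. In D425 it read 55.0, 51.9 and 51.7 CPM with hairpin 6 and 58.3, 47.9 and 54.3 CPM with hairpin 8, inside the control range of 46.2 to 58.7 CPM. The log2 changes were -0.04 ± 0.11 (95% interval -0.28 to 0.20) and -0.02 ± 0.11 (-0.26 to 0.22). In D458 it read 43.3, 38.4 and 46.0 CPM with hairpin 7 and 41.0, 40.7 and 46.6 CPM with hairpin 8 (controls 59.8, 46.7 and 49.4 CPM). All 6 hairpin libraries were below all 3 controls, but the highest of them, at 46.6 CPM, lay just under the lowest control, at 46.7 CPM. These changes were -0.29 ± 0.11 (adjusted p = 0.078) and -0.28 ± 0.11 (adjusted p = 0.083), not called, and both passed with the replicate block (adjusted p = 0.0156 and 0.0176).

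Averaged over the D458 hairpins, EYA3 was called lower (-0.29 ± 0.10, adjusted p = 0.0365). The call was lost with DESeq2 size factors (-0.26, adjusted p = 0.0502), with no filter on low counts (-0.27, adjusted p = 0.0626), in 6 of 9 fits that left out 1 library, and in all 3 fits that left out a replicate number (adjusted p = 0.0831 to 0.300). The value moved most without D458 control 1, to -0.16 (adjusted p = 0.288). The other libraries whose removal ended the call were D458 control 3, hairpin 7 replicates 1 and 2, and hairpin 8 replicates 1 and 2, with values from -0.30 to -0.23. The EYA3 change in D458 minus that in D425 was -0.25 ± 0.14 and was not called (adjusted p = 0.220).

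EYA4, best known from inherited hearing loss and heart muscle disease, gave 16 reads over the 18 libraries, 2 in D425 and 14 in D458, and at most 4 in a library. By group the D458 sums were 4, 7 and 3 reads in controls, hairpin 7 and hairpin 8. A floor of 3 reads over a group corresponds to 0.0346 to 0.0448 CPM, so a fall of EYA4 was not detectable at this depth. No library held more than 0.179 CPM of EYA4, whereas each D458 library held at least 26.9 CPM of EYA1.

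**Figure D3:**
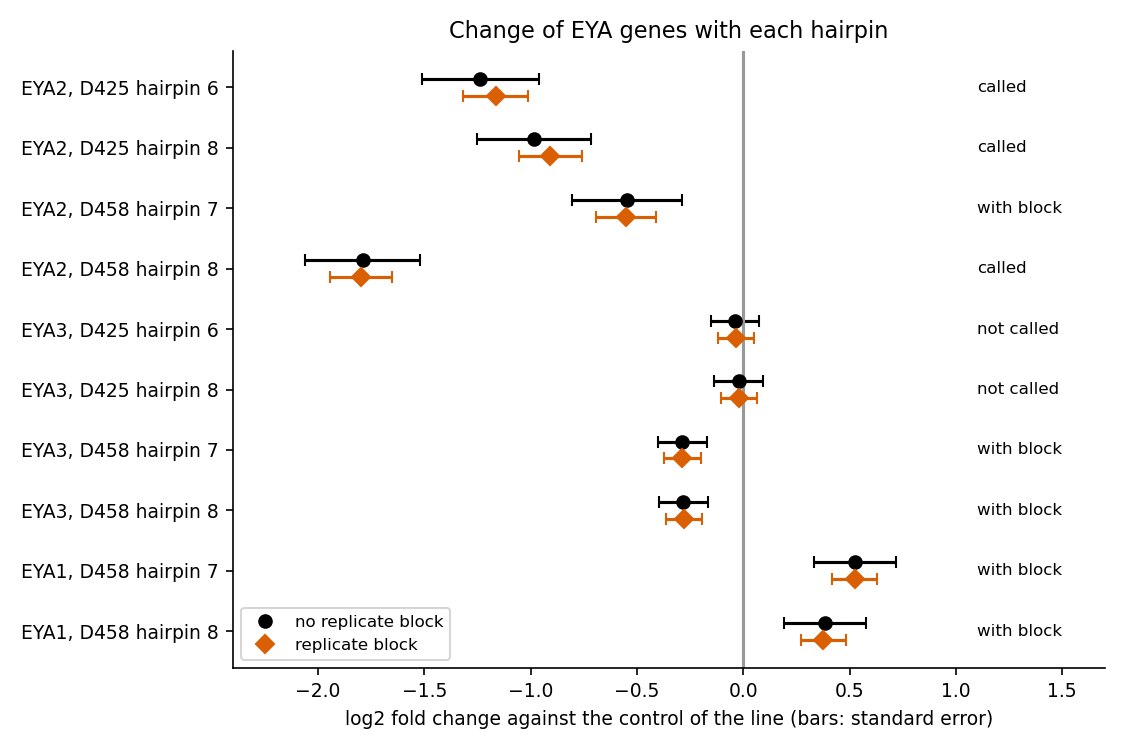
Log2 fold change against the control of the line for EYA2, EYA3 and EYA1 (EYA1 in D458 only), with standard errors; black circles are the fit with no replicate block and orange diamonds the fit with it. The words at the right say whether the fit with no block called the gene, or only the fit with the block; EYA2 with hairpin 8 in D458 moved most, at -1.79.

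The family was also summed per kb of exon to see how the paralogs' levels compare with the EYA2 difference. Family RNA in D425 was 19.1 ± 5.71 CPM per kb in controls, 12.9 ± 1.38 with hairpin 6 (67.7% of control) and 13.9 ± 1.91 with hairpin 8 (72.6%), where the lowest control was 15.1 and the highest hairpin library 15.9. In D458 it was 39.6 ± 2.54 CPM per kb in controls, 32.1 ± 1.04 with hairpin 7 (81.2%) and 21.2 ± 1.00 with hairpin 8 (53.5%), and the 3 groups did not overlap. The EYA1 mean was 2.28 CPM per kb above control with hairpin 7 and 1.57 above it with hairpin 8, equal to 27.8% and 8.47% of the EYA2 difference. The EYA3 mean differed from control by -1.52 and -1.49 CPM per kb in the same cells. No test was run on these sums or on the shares that follow.

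The makeup of the family differed between the D458 groups. EYA2 made up 65.8 ± 1.29% of family RNA per kb in controls, 55.4 ± 2.34% with hairpin 7 and 35.5 ± 3.22% with hairpin 8. EYA1 made up 13.1 ± 0.28%, 23.2 ± 1.02% and 31.8 ± 3.51% in the same groups. The ratio of EYA1 to EYA2 per kb was 0.199 ± 0.0043 in controls, 0.419 ± 0.025 with hairpin 7 and 0.904 ± 0.158 with hairpin 8, with no overlap. A fall of EYA2 alone raises this ratio and the shares of the other members, so these values do not by themselves show a change of a paralog. With hairpin 8 the 3 members stood at 7.52 ± 1.03 (EYA2), 6.89 ± 0.53 (EYA3) and 6.73 ± 0.81 (EYA1) CPM per kb, inside each other's spread. That too depends on the lengths used: in CPM they stood at 20.3 ± 2.77, 42.7 ± 3.31 and 36.2 ± 4.34. In D425, where EYA1 was nearly absent, EYA3 was the leading member with both hairpins, at 66.2 ± 4.50% and 62.5 ± 3.14% of family RNA per kb against 48.0 ± 12.8% in controls.

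**Figure D4:**
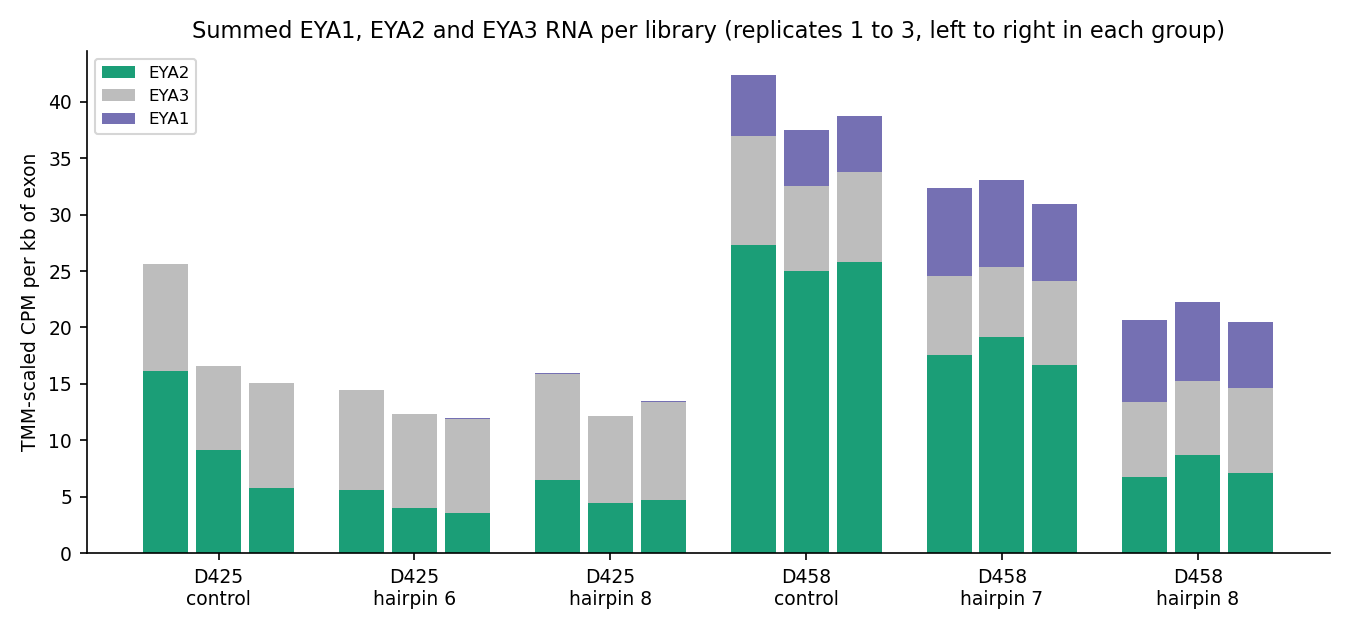
Summed TMM-scaled CPM per kb of exon of EYA2 (green), EYA3 (grey) and EYA1 (purple), 1 bar per library; EYA4, at most 0.0296 CPM per kb, is not drawn. Bars shrink with hairpin 8 in D458, from 37.5 to 42.4 in controls to 20.5 to 22.3, mainly through EYA2.

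To set the EYA2 fall beside its chromosomal surroundings, the 10 tested genes on each side of it were read in RefSeq order (14491 of 14850 tested genes were placed). EYA2 lies on chromosome 20. The EYA2 change was lower than those of all 20 neighbours with hairpins 6 and 8 in D425 and with hairpin 8 in D458, and lower than 19 of 20 with hairpin 7. The neighbours' median log2 change was -0.24 and -0.16 in D425 and -0.03 and -0.06 in D458. Over all 381 tested genes of chromosome 20 the medians were -0.27 and -0.28 in D425, with 119 and 154 genes called lower and 15 and 20 called higher, against -0.04 and -0.06 in D458. EYA2 stood -0.97 and -0.70 below the chromosome's median in D425, and -0.50 and -1.73 below it in D458. The shift of chromosome 20 in D425 is a value beside the EYA2 fall there, and its part in it was not tested.

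Of the genes beside EYA2, those called nearest to it with hairpin 6 were SLC13A3, ELMO2, SLC35C2 and STAU1, at -0.58, -0.42, -0.47 and -0.55. With hairpin 8 in D425 they were SLC13A3, ZNF334, CSE1L and STAU1, the last a double-stranded RNA binding protein, at -0.46, -0.54, -0.39 and -0.55. In D458 the nearest called genes were SULF2, CSE1L, SLC35C2 and STAU1 with hairpin 7 and SULF2, CSE1L, DDX27 and NCOA5 with hairpin 8, of which only SULF2 was higher. For EYA3, the 20 genes beside it had medians of -0.13 and -0.17 in D458, and 6 and 5 of them were lower than EYA3. For EYA1 in D458, 17 of the 20 genes beside it were lower than EYA1 with each hairpin, and their medians were -0.16 and -0.05.

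**Figure D5:**
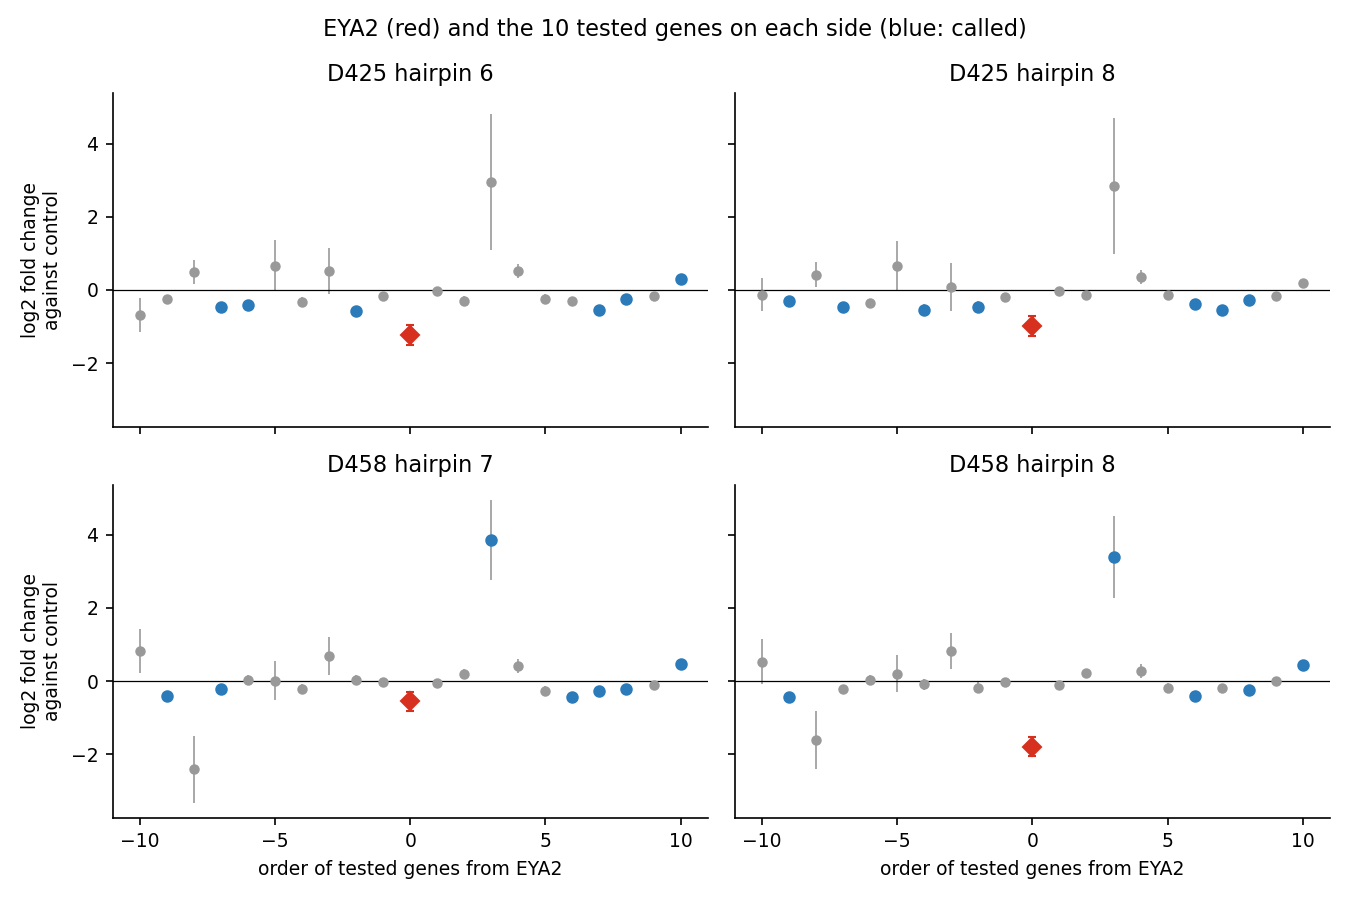
Log2 fold change with standard error of EYA2 (red diamond, order 0) and of the 10 tested genes on each side in chromosomal order, 1 panel per hairpin group; called neighbours are blue and the others grey. EYA2 lies below all 20 neighbours in 3 panels and below 19 of 20 with hairpin 7 in D458.

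Of SIX2 to SIX6, homeobox genes of the sine oculis type, 4 of 5 were tested, and SIX6 had at most 2 reads in any group. In D425, 2 of these 4 were called lower with hairpin 6, beside 14.1% of all tested genes called in either direction, and 1 with hairpin 8, a share near the 21.7% over all genes. SIX2 read 73.6, 90.9 and 98.6 CPM in the D425 controls, 46.8, 56.5 and 56.0 CPM with hairpin 6 and 41.7, 54.6 and 50.4 CPM with hairpin 8. All 6 hairpin libraries were below all 3 controls, and the hairpin groups overlapped each other. It fell by 0.72 ± 0.11 (adjusted p = 7.25e-04) and by 0.84 ± 0.11 (adjusted p = 1.52e-04) on the log2 scale, a call that was lost with hairpin 6 only without replicate 2 or replicate 3. SIX4 fell with hairpin 6 (-0.44 ± 0.14, adjusted p = 0.046).

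In D458, 2 of the 4 were called higher with hairpin 7, beside 22.6% over all genes, and 1 with hairpin 8, a share near the 23.2% over all genes. SIX3, known from the forebrain and eye, rose from 48.2 ± 7.89 CPM to 62.3 ± 6.13 and 61.2 ± 2.91 CPM (log2 changes 0.37 ± 0.11 and 0.35 ± 0.11, adjusted p = 0.024 and 0.031). With hairpin 7, SIX5 was also called higher (0.28 ± 0.10, adjusted p = 0.046). SIX2 was at 33.3 ± 0.913 CPM in D458 controls and at 36.2 ± 0.935 and 32.5 ± 2.58 CPM with the hairpins, which was not called. The median log2 change of these 4 genes was -0.26 and -0.21 in D425 and 0.20 and 0.16 in D458, beside medians of 0.01 to 0.02 over all genes. The calls for SIX3, SIX4 and SIX5 were lost in 7 or more of 9 fits that left out a library or a replicate number. SIX3 was also lost in a fit restricted to D458 (adjusted p = 0.059 and 0.073). SIX5 was lost in that fit and with no filter on low counts, and SIX4 with no filter.

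Of the DACH and SKI genes, all 4 were tested, and DACH1 was the only one called, lower with both D425 hairpins. That is 1 of 4 in comparisons that called 14.1% and 21.7% of all genes. It read 5.23, 10.2 and 7.81 CPM in the D425 controls, 2.45, 4.04 and 4.44 CPM with hairpin 6, and 2.13, 4.76 and 4.19 CPM with hairpin 8. All 6 hairpin libraries were below the lowest control. The log2 changes were -1.08 ± 0.32 (adjusted p = 0.033) and -1.07 ± 0.32 (adjusted p = 0.025). In D458 DACH1 was at 19.4 ± 4.83 CPM in controls and at 20.6 ± 4.67 and 17.9 ± 3.53 CPM with the hairpins. DACH2 was low throughout, at 0.295 ± 0.0718 CPM in D425 controls, and was not called with any hairpin. The DACH1 call in D425 was lost in 7 and 5 of 9 fits that left out a library or a replicate number, and with hairpin 6 in a fit restricted to D425 (adjusted p = 0.059).

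Only 2 of 9 PAX genes passed the filter. PAX9, known from teeth, thymus and skeleton, read 3.78, 3.57 and 3.50 CPM in the D458 controls, 1.23, 1.01 and 0.851 CPM with hairpin 7, and 0.752, 1.17 and 1.15 CPM with hairpin 8. It fell by 1.80 ± 0.30 (adjusted p = 9.63e-04) and by 1.82 ± 0.30 (adjusted p = 8.40e-04) on the log2 scale. All 6 hairpin libraries were below the controls, and the hairpin groups overlapped each other. The hairpin 7 call was lost without replicate 3. In D425, PAX9 was at 1.24 ± 0.585 CPM in controls and at 1.17 ± 0.159 and 1.20 ± 0.149 CPM with the hairpins, which was not called.

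All 10 listed partners and substrates of EYA proteins were tested. With hairpin 6, ESR2 rose (0.47 ± 0.14, adjusted p = 0.028) and MYC, whose protein is reported to be kept stable by a complex of EYA3 with the phosphatase PP2A, fell (-0.43 ± 0.10, adjusted p = 0.0073). With hairpin 8 in D425, MYC fell (-0.55 ± 0.10, adjusted p = 9.39e-04), and so did H2AFX, the gene of the substrate H2AX (-0.57 ± 0.13, adjusted p = 0.0051). In D458, WDR1 rose with both hairpins (0.24 ± 0.06 and 0.23 ± 0.06, adjusted p = 0.0093 and 0.012) and CREBBP, an acetyltransferase recruited by EYA proteins, fell (-0.32 ± 0.11 and -0.36 ± 0.11, adjusted p = 0.049 and 0.030). ESR2 rose with hairpin 8 there (0.49 ± 0.14, adjusted p = 0.019). The calls thus came to 2 of 10, 2 of 10, 2 of 10 and 3 of 10 for the 4 hairpin groups, beside 14.1% to 23.2% over all genes. Of these, CREBBP with hairpin 7 was lost with DESeq2, with its size factors, with no filter on low counts and in 9 of 9 fits that left out a library or a replicate number, and with hairpin 8 in 7 of 9 such fits. ESR2 with hairpin 6 was lost with no filter, in a fit restricted to D425 and in 7 of 9 such fits, and with hairpin 8 in D458 in 5 of 9. The MYC, H2AFX and WDR1 calls were lost in 1 or 2 of 9 such fits, each time without a replicate number.

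Across the 18 libraries, the genes whose level ran most like EYA1 were NOL4, THBS4, MEF2C and NNAT, each with a Pearson r of 0.998 or 0.999 on the log2 scale. For EYA1 this mainly separates the lines, since 701 genes had an r of at least 0.95. The genes most like EYA2 were TPP2 (r = 0.883), ZFP64 (0.878), U2AF2 (0.875), CCDC117 (0.871) and MFAP4 (0.863), and those most like EYA3 were SEPHS2 (0.923), C7orf49 (0.900), CDK4 (0.900), MTG1 (0.899) and RRP8 (0.896). EYA2 and EYA1 ran together over all libraries (r = 0.675) and apart within the 9 D458 libraries (r = -0.447), and EYA3 and EYA1 ran apart in D458 (r = -0.723). These correlations describe libraries that share a line, a hairpin, a run and a scaling.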

How the data were processed

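Per the labels, polyA RNA of 18 samples was sequenced with a stranded kit. The authors' deposited table holds whole-number read counts per gene symbol for all 18 libraries, not normalized. Per the submitters' processing notes, the tools were HTSeq, TopHat2 with Bowtie2, and, for files and quality, Picard, SAMtools, FastQC and bcl2fastq, and the builds were hg19 and GRCh37. What is not given in the sources used here is the versions, whether counting used strand, and how reads with several matches were treated, so reads of genes that overlap an EYA gene could not be separated.

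From the counts, edgeR 4.0.16 (R 4.3.3, limma 3.58.1) gave TMM-scaled CPM and a robust quasi-likelihood fit with 6 group coefficients on 14850 genes kept by filterByExpr (minimum count 10), with 12 residual degrees of freedom and Benjamini-Hochberg adjustment over all of them. There were 11 comparisons. The standard error is the log2 change divided by the root of the F statistic. The fit was tested on simulated data. Alternatives were DESeq2 1.42.0, its size factors in edgeR, no filter, a replicate block, each line alone, and each library or replicate number left out. Likeness was Pearson r of log2(CPM + 0.5), over genes averaging at least 1 CPM. Exon lengths and sequences came from GENCODE, on GRCh38, and gene order from RefSeq, on GRCh38.p14, both by symbol, and coding sequences were aligned with Biopython 1.88.

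Libraries of a line with the same replicate number share a run name in the labels, and the replicate block rests on that. Replicates 2 and 3 share a date in the labels, which was not entered in any fit. Fits without replicate 1 thus rest on libraries of the same date. After removal of group means, they correlated at 0.105 to 0.684 in D425 and 0.209 to 0.815 in D458. Libraries of different numbers and groups correlated at -0.464 to 0.252 in D425 and -0.707 to 0.437 in D458, so the ranges overlap. D425 control 2 was closer to hairpin 6 replicate 3 (0.252) than to replicate 2 (0.179). Control 3 was closer to replicate 2 (0.241) than to replicate 3 (0.105). Between the D425 hairpins, the same number gave 0.501 to 0.684. D458 held no such exception: each library lay closest to that of its own number in either other group. There, pairs with a shared number averaged 0.45, against -0.206 for pairs of different numbers. The D425 averages were 0.349 against -0.168. The members, gene lists and tests were chosen with earlier results of these data known. Of the lists, up to 4 called members per comparison are named by adjusted p, with SIX2 to SIX6, DACH1 and DACH2. Of the genes beside EYA2, up to 4 called ones are named by distance, and for likeness the 5 with the highest r. Not every gene under this rule is reported here.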

Additional observations from a re-analysis of the deposited data

Results flagged for a closer look

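The change of 4 network genes differed between the lines by the test of the difference itself. These comparisons called 11.8% of all tested genes with hairpin 8 and 18.4% in the mean over hairpins. With hairpin 8 the calls were 1 of the 4 tested genes of SIX2 to SIX6, 1 of 2 PAX genes, 0 of 4 DACH and SKI genes, and 1 of 10 partners and substrates. In the mean they were 2 of 4, 1 of 2, 0 of 4 and 1 of 10. These counts were not tested against the share over all genes. The PAX9 change with hairpin 8 was lower in D458 than in D425 by -1.77 on the log2 scale (adjusted p = 0.0141), and the mean over hairpins differed by -1.74 (adjusted p = 0.0042). SIX2 differed by 0.81 with hairpin 8 (adjusted p = 0.0051) and by 0.83 in the mean (adjusted p = 0.0010), beside its fall in D425. SIX5 differed by 0.40 in the mean over hairpins (adjusted p = 0.028). WDR1 differed by 0.29 with hairpin 8 (adjusted p = 0.034) and by 0.30 in the mean (adjusted p = 0.0095). The WDR1 difference with hairpin 8 was lost with no filter on low counts and in 7 of 15 fits that left out a library or a replicate number, and SIX5 in 5 of 21. The PAX9 differences, SIX2 with hairpin 8 and the WDR1 mean were lost without replicate 2 or replicate 3, and the SIX2 mean without replicate 3. The lines share only hairpin 8, so the means set hairpins 6 and 8 in D425 beside hairpins 7 and 8 in D458.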

How the results depend on the processing

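Of 375 alternative fits of EYA1, EYA2 and EYA3, 314 kept the direction and the side of the threshold, 19 lost a call, 25 gained one and 17 changed sign. The sign changes all came with 1 library or replicate number left out, in values near 0: EYA3 in D425, which ranged from -0.15 to 0.023 with hairpin 6, -0.13 to 0.048 with hairpin 8 and -0.14 to 0.026 in the mean, and the EYA2 difference of the mean effects, from -0.54 to 0.23. The other such ranges were, for EYA2 in D425, -1.53 to -0.76 with hairpin 6, -1.28 to -0.51 with hairpin 8 and -1.40 to -0.64 in the mean, for EYA1 in D458, 0.50 to 0.61 with hairpin 7 and 0.44 to 0.53 in the mean, and for the EYA3 mean in D458, -0.36 to -0.16. Calls gained with the replicate block were EYA1, EYA2 and EYA3 with hairpin 7 (0.53, -0.55 and -0.29), EYA1 and EYA3 with hairpin 8 in D458 (0.38 and -0.28), the EYA1 mean in D458 (0.45), EYA2 between the D458 hairpins (-1.25) and the EYA2 difference of the hairpin 8 effects (-0.89). It changed no other call against a control among the EYA values given here. DESeq2 gained EYA1 with hairpin 7 (0.55), with hairpin 8 (0.40) and in the mean (0.48), and EYA2 between the D458 hairpins (-1.25). A fit restricted to 1 line gained EYA1 (0.53, 0.38 and 0.46 in the mean), EYA2 with hairpin 7 (-0.55) and between the D458 hairpins (-1.25), and lost EYA2 with hairpin 8 in D425 (-0.98). DESeq2 size factors and no filter gained the EYA1 mean (0.48 and 0.47) and lost the EYA3 mean (-0.26 and -0.27). The cause of these changes was not tested. With the block, the genes called rose from 2101 to 4134 and from 3221 to 5521 in D425, from 3357 to 5937 and from 3442 to 5888 in D458, from 3504 to 5718 in the D425 mean, from 1758 to 3934 for the hairpin 8 difference and from 2735 to 5004 for the difference of means. Of 19 calls of listed genes in the hairpin comparisons, 12 held in all settings that kept every library, 2 (SIX2 and PAX9, each with hairpin 8) held without each library and replicate number, and none changed direction. Depth limits the detection of a fall of EYA4 in both lines and of EYA1 in D425.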
